A study of Homo sapiens with 6 samples.

Results

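A set of 10 genes whose products make, load or oxidise the lipids of the skin barrier were examined in MCF-10A cells with raised MBD2 and in control cells, and 9 of them, of 19775 genes in all, were read by 18 probe sets of the 41091 that carry exactly 1 gene symbol. They were SPTLC2, ELOVL4, CERS3, CERS4, UGCG, ABCA12, ALOX12B, ALOXE3 and ALOX15B, chosen by name through the platform annotation, with every probe set of a gene kept. The platform table used here names no probe set for SPTLC3, which was therefore not analysed. MCF-10A is an immortalized, nontransformed line of human breast epithelial cells, grown here in mammary epithelial medium. Both groups hold 3 Affymetrix arrays of total RNA from these cells, and the MBD2 cells were infected with a lentivirus carrying MBD2, a protein that binds methylated DNA, packaged in HEK293 cells. The treatment label reads MBD2 transfection, where the methods describe the lentivirus. The labels call the controls non-infected and the arrays technical replicates, whereas the methods name an empty control virus and biological replicates. No promoter for the MBD2 insert and no cloning or selection of the infected cells is given in the sources used here. If the arrays are technical repeats, the p-values describe hybridization spread and not that between cultures.

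The water barrier of the epidermis is made in part of ceramides with very long fatty acids. Differentiating keratinocytes build these ceramides, pack them as glucosylceramides into lamellar bodies and release them between the cornified cells. Serine palmitoyltransferase starts the sphingoid base, elongases and ceramide synthases add the long acyl chain, UGCG adds glucose and ABCA12 carries the product into the lamellar body. The lipoxygenases ALOX12B and ALOXE3 then oxidise the linoleate of acylceramide in sequence, a step needed to fix ceramide to the cornified envelope, and inherited loss of several of these genes causes ichthyosis. Breast epithelium builds no such barrier, but this line carries transcripts of some keratinocyte genes. The basal keratin genes KRT5 and KRT14 had mean log2 values of 13.15 and 14.23 on the control arrays. Of the genes of terminal differentiation, KRT1 stood at 10.94 and involucrin (IVL) at 8.41, whereas filaggrin (FLG) stood at 3.73, near background, so the "epidermal" name refers to what the genes are known for and not to the cells.

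MBD2 was raised as labelled on its brightest probe set only. That probe set read 8.92, 9.03 and 9.68 on control arrays 1, 2 and 3. On the MBD2 arrays it read 12.17, 11.72 and 12.50 (limma, adjusted p = 0.0157). The other MBD2 probe sets were dimmer, with control means of 3.04 to 4.73, and none of them passed. Their log2 fold changes were -0.08, -0.03 and 0.11 (limma adjusted p = 0.651 to 0.931). The arrays of a group were unevenly alike. Control arrays 1 and 2 were more than 2-fold apart in 26 probe sets of the 41091 and MBD2 arrays 2 and 3 in 148, but control arrays 1 and 3 were in 3037 and MBD2 arrays 1 and 2 in 5552. A list of mitosis genes lay low on control array 3 and MBD2 array 1, with medians of -1.16 and -0.57 from the control mean against 0.58 to 1.67 on the other arrays, and the added hybridization controls averaged 10.17 and 10.23 on MBD2 arrays 2 and 3 against 11.20 to 11.58 elsewhere. What these differences contribute to the values below was not tested, and member results that rest on an array are given with and without it.

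Of the 18 probe sets, 2 were lower in MBD2 cells and 0 were higher in limma (adjusted p under 0.05, fold of 1.5 or more), against 0.978% of all probe sets called lower and 0.898% called higher. The lower ones read ABCA12, the lipid transporter of lamellar bodies, by 8.97-fold, and ALOX12B, the 12R-lipoxygenase, by a measured 2.36-fold with its MBD2 readings near background. At an unadjusted p under 0.05, limma gave 3 lower and 1 higher, where 8.05% and 8.49% of all probe sets passed. The groups did not overlap for 4 probe sets on the lower side (12.3% of all probe sets) and 1 on the higher side (10.4%). By the rule that the methods give, a ratio under 0.5 on every MBD2 array and no p, the same 2 probe sets passed among the members and 1.4% of all. The study's own list of repressed genes is described with another rule, a p cutoff and a milder ratio, which was not applied here. The median log2 fold change was -0.36 over the 18 probe sets and 0.00 over all. As the members were chosen with earlier results of these data known, these comparisons with all probe sets are descriptive only. When the near-identical arrays (control 1 with 2, MBD2 2 with 3) were each merged to their mean, limma called 0 members and 0 of all probe sets, with 2 members and 1327 of all probe sets lower at an unadjusted p under 0.05. The RNA came from whole cultures, so fewer cells that make a transcript and less of it per cell cannot be told apart.

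**Figure D1:**
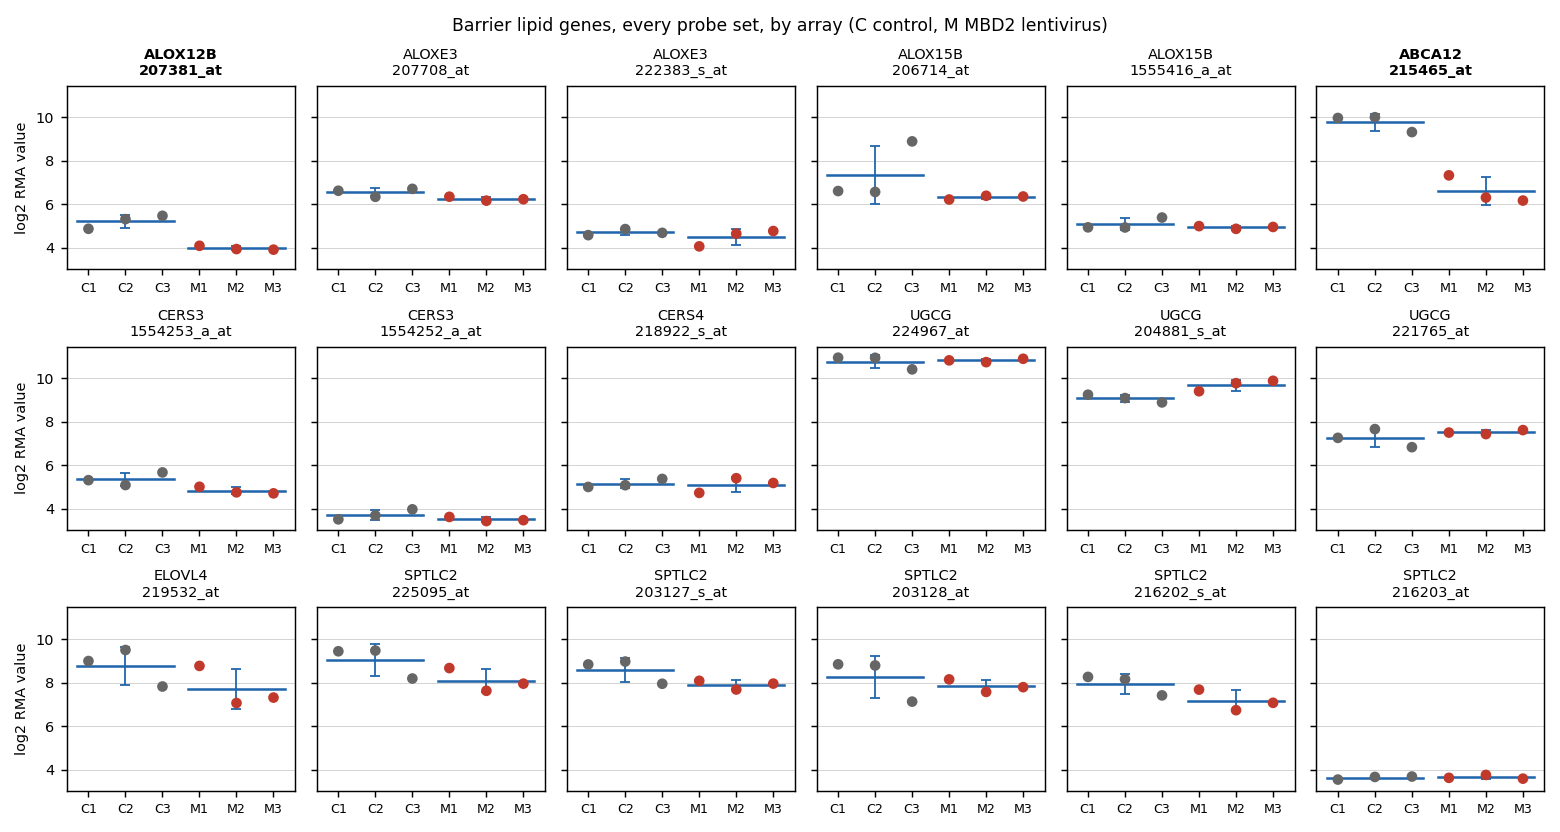
Log2 RMA value (vertical axis) of each of the 18 probe sets on control arrays C1 to C3 (grey points) and MBD2 arrays M1 to M3 (red points), with blue lines and bars for the mean and SD of each group. ABCA12 and ALOX12B, in bold, were the probe sets called lower. ALOX15B stands out on C3 (8.90), and ELOVL4 and SPTLC2, except its dim 216203_at, lie on C3 below C1 and C2.

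SPTLC2, a catalytic subunit of serine palmitoyltransferase, which makes the first sphingoid base, was read by 5 probe sets, and none passed the test. The brightest read 9.45, 9.48 and 8.19 on control arrays 1, 2 and 3 and 8.67, 7.62 and 7.95 on MBD2 arrays 1, 2 and 3. Control arrays 1 and 2 thus lay above all MBD2 arrays, and control array 3 lay below MBD2 array 1. The mean was 9.04 ± 0.73 in control and 8.08 ± 0.53 in MBD2 cells (SD, n = 3 in each group), a difference of -0.95 that did not pass (limma adjusted p = 0.35). Probe sets 203127_s_at, 203128_at and 216202_s_at had log2 fold changes of -0.68, -0.42 and -0.78 and showed the same low control array 3, at -1.69 to -0.80 log2 units from the mean of the other controls. The 5th, 216203_at, stayed between 3.54 and 3.75 on all 6 arrays. That is within 0.5 log2 units of the highest reading of the control probe sets for trp, a bacterial transcript taken here as not added (2.93 to 3.67), so it carries no usable level. Without control array 3 alone, the other 4 had log2 fold changes of -1.38 to -0.98 and were not called (limma adjusted p = 0.0562 to 0.168). Without control array 3 and MBD2 array 1 together, they were called lower, by -1.08 to -1.67 on the log2 scale. That comparison sets 2 pairs of near-identical arrays against each other and called 9.96% of all probe sets lower and 15.5% higher.

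ELOVL4, the elongase that makes the ultra-long acyl chains of barrier ceramides, followed the same arrays. Its only probe set read 9.00, 9.50 and 7.82 on control arrays 1, 2 and 3 and 8.77, 7.06 and 7.31 on MBD2 arrays 1, 2 and 3. MBD2 array 1 lay at the control mean (a difference of -0.00), and control array 3 lay between MBD2 arrays 1 and 3, so the groups overlapped. Mean values of 8.77 ± 0.86 in control and 7.71 ± 0.92 in MBD2 cells (SD, n = 3 in each group) gave a log2 fold change of -1.06 (95% interval -2.54 to 0.42, limma adjusted p = 0.446). The log2 fold change was -0.69 without control array 2 and -1.59 without MBD2 array 1, and leaving out control array 3 together with MBD2 array 1 gave -2.06 (limma adjusted p = 7.21e-05). With the near-identical arrays averaged it was -0.56 (limma adjusted p = 0.952). The size of the ELOVL4 difference and its call therefore depended on which arrays entered.

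The ceramide synthases join the acyl chain to the sphingoid base, CERS3 with the ultra-long chains of the epidermis and CERS4 with shorter chains. The brighter probe set of CERS3 read 5.31, 5.09 and 5.67 on the control arrays and 5.01, 4.75 and 4.70 on the MBD2 arrays. The groups did not overlap, by a margin of 0.08 log2 units, and the log2 fold change was -0.54 (standard error 0.18, unadjusted p = 0.025 and adjusted p = 0.225 in limma). The other probe set of CERS3 lay between 3.43 and 3.97, within 0.5 log2 units of the highest absent-control reading. CERS4 read 5.00, 5.08 and 5.37 on control arrays 1, 2 and 3 and 4.73, 5.40 and 5.18 on MBD2 arrays 1, 2 and 3. Its groups overlapped fully, with a log2 fold change of -0.05 and a 95% interval of -0.55 to 0.46, which holds the change of the single CERS4 probe set within 1.5-fold either way.

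UGCG, which adds glucose to ceramide, was the member with values on the higher side, but its 3 probe sets differed. Probe set 204881_s_at read 9.25, 9.09 and 8.89 on the control arrays and 9.41, 9.78 and 9.89 on the MBD2 arrays, with no overlap between the groups. Its log2 fold change was 0.61 (95% interval 0.20 to 1.03), and it did not pass (unadjusted p = 0.011, adjusted p = 0.159 in limma). It passed without MBD2 array 1, with 0.76 (limma adjusted p = 0.0257), and with control array 3 left out as well it had 0.66 (limma adjusted p = 0.00342). Calls rose widely in these settings. Of the 41091 probe sets, 3616 were called higher without MBD2 array 1, against 369 with all arrays, and 15.5% with both arrays left out. The brightest probe set, 224967_at, read 10.95, 10.95 and 10.41 on the control arrays and 10.83, 10.75 and 10.90 on the MBD2 arrays. It had a log2 fold change of 0.06 (95% interval -0.37 to 0.48), which became -0.07 with the arrays centred on housekeeping genes. The third, 221765_at, had 0.27 (95% interval -0.27 to 0.80). Only the first of these probe sets had separate groups, and with all arrays in the fit none of the 3 passed.

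ABCA12, mutated in harlequin ichthyosis, fell most among the members. Its only probe set read 9.98, 10.01 and 9.33 on control arrays 1, 2 and 3 and 7.34, 6.31 and 6.17 on MBD2 arrays 1, 2 and 3. Every MBD2 array lay at least 1.99 log2 units below every control array, and MBD2 array 1 was the highest of its group, 1.09 above the mean of the other MBD2 arrays. The mean fell from 9.77 ± 0.39 in control to 6.61 ± 0.63 in MBD2 cells (SD, n = 3 in each group), a log2 fold change of -3.16 (standard error 0.36, 95% interval -4.05 to -2.28, limma adjusted p = 0.0224). All of these values lie above the absent control, so both group means are measured levels. MBD2 array 1 alone, whose hybridization controls matched those of the control arrays, lay 2.44 log2 units under the control mean (adjusted p = 0.0434 in the limma fit with the hybridization level as a block). That fit sets this 1 array against the controls and assumes that it varies like the other arrays, MBD2 arrays 2 and 3 included, which lie in a block of their own. With 1 array left out in turn the log2 fold change lay between -3.53 and -2.95 and the limma adjusted p between 0.00323 and 0.126. The threshold was missed when control array 1 (0.126), control array 2 (0.126), MBD2 array 2 (0.0928) or MBD2 array 3 (0.111) was dropped, and merging the near-identical arrays gave 0.48.

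The 3 lipoxygenase genes lie side by side on chromosome 17, from chr17:8039059-8049134 (ALOX15B) through chr17:8072636-8087716 (ALOX12B) to chr17:8095900-8118916 (ALOXE3) in GRCh38.p14, and their readings were unlike one another. ALOX12B, which makes the first oxidation of the linoleate in acylceramide, read 4.87, 5.32 and 5.47 on the control arrays and 4.09, 3.94 and 3.91 on the MBD2 arrays. The groups were separate, and the mean fell from 5.22 ± 0.31 in control to 3.98 ± 0.10 in MBD2 cells (SD, n = 3 in each group), a log2 fold change of -1.24 (standard error 0.18, limma adjusted p = 0.0368). Each MBD2 array read no more than 0.5 log2 units above the highest absent-control reading (3.67), a margin chosen after seeing the data, so background limits the fold that ALOX12B can show. Left out in turn, each array but MBD2 array 1 took the adjusted p above 0.05. It was 0.0773, 0.17 and 0.0524 without control arrays 1, 2 and 3 and 0.138 and 0.176 without MBD2 arrays 2 and 3. It was 0.0147 without MBD2 array 1, and 0.461 with the near-identical arrays averaged. With the hybridization level as a block the log2 fold change was -1.13, and the call was lost (limma adjusted p = 0.105).

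ALOXE3 uses the product of ALOX12B as its substrate. Its brighter probe set read 6.63, 6.35 and 6.71 on the control arrays and 6.35, 6.17 and 6.24 on the MBD2 arrays. MBD2 array 1 and control array 2 read nearly alike, and the log2 fold change was -0.31 (95% interval -0.63 to 0.01, limma adjusted p = 0.318). The dimmer probe set of ALOXE3 had -0.21 (95% interval -0.73 to 0.30). The log2 fold change of ALOX12B lay further below 0 than that of ALOXE3, but the difference between the genes was not tested, and background bounds the first.

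ALOX15B, a 15-lipoxygenase of skin and other epithelia, was set apart by a single array. Its brighter probe set read 6.61, 6.57 and 8.90 on control arrays 1, 2 and 3 and 6.22, 6.39 and 6.36 on MBD2 arrays 1, 2 and 3. Control array 3 lay 2.31 log2 units above the mean of the other controls, a distance reached by 0.696% of all probe sets, and its second probe set lay 0.45 above there. The group means differed by -1.03 (standard error 0.64, limma adjusted p = 0.481), and by -0.27 without control array 3 (limma adjusted p = 0.311). The groups were separate in both cases, by 0.18 log2 units between the lowest control and the highest MBD2 array.

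**Figure D2:**
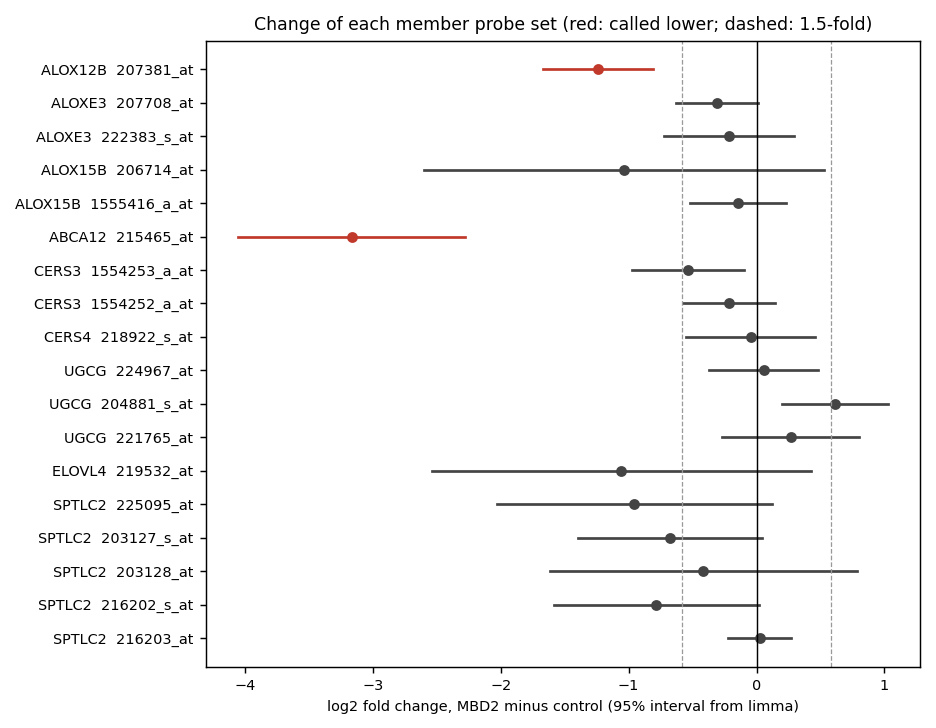
Log2 fold change, MBD2 minus control (horizontal axis), of each probe set with its 95% interval from limma; red marks probe sets called lower and dashed lines mark 1.5-fold. The intervals of ABCA12 (-4.05 to -2.28) and ALOX12B (-1.67 to -0.81) lie wholly beyond 1.5-fold, and the widest intervals are those of ALOX15B 206714_at and ELOVL4.

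Around the lipoxygenases, 28 other annotated genes lay within 100 kb, and 7 of them had a probe set with 1 symbol. Of these, 0 were called in limma in either direction, where 1.28% of all genes were lower and 1.04% higher. In limma 0 had an unadjusted p under 0.05 (9.79% lower and 8.83% higher of all genes). Groups were separate for 0 (14.6% and 10.4%). Their log2 fold changes were -0.09 for CNTROB, -0.28 for GUCY2D, 0.02 for HES7, -0.10 for VAMP2, -0.31 for TMEM107, -0.29 for BORCS6 and 1.06 for AURKB. AURKB encodes a mitotic kinase and belongs to the mitosis list that differed between arrays of a group. A count of 0 of 7 called is near the share of all genes. ALOX12B, the single measured gene that passed in this stretch, was a member chosen with earlier results of these data known. Its difference from the neighbours was not tested.

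MBD2 binds methylated CG dinucleotides, so the reference sequence around the starts of the members is of interest, although no methylation was measured on these arrays. RefSeq start windows of 250 bases before to 50 after a start (GRCh38.p14) were at hand for 7 members with 13 windows. The median over all 35116 windows was 14 CG. Both genes that fell held fewer than that, with 2 and 1 in the windows of ABCA12 and 5 in that of ALOX12B, whereas UGCG held 48, ELOVL4 32 and SPTLC2 26. ALOXE3 held 9 to 19, and CERS3 4 in its most downstream window and 31 to 34 in the others. As many CG as UGCG or more were found in 1.98% of all windows, and at least the single CG of the upstream ABCA12 window in 96.0%. At least as many as in the downstream ABCA12 window were found in 89.0%, and as in the ALOX12B window in 70.4%. Any relation between the number of CG and the change of a gene was not tested. The 3 windows of the genes that fell are shown beside UGCG, with each CG in capitals and each window read on its own gene's strand.
ABCA12 upstream start, chr2:215138577-215138876, minus strand: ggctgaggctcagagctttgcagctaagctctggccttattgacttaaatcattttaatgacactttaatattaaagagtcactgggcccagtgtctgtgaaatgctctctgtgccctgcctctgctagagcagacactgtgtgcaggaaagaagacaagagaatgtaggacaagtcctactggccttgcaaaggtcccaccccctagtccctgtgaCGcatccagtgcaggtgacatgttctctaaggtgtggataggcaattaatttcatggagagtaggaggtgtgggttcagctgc
ABCA12 downstream start, chr2:215032037-215032336, minus strand: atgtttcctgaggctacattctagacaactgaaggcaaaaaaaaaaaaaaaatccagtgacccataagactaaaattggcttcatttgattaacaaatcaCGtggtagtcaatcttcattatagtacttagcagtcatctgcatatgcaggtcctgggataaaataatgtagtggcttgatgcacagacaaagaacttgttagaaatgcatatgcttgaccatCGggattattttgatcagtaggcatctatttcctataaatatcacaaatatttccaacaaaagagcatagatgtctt
ALOX12B, chr17:8087667-8087966, minus strand: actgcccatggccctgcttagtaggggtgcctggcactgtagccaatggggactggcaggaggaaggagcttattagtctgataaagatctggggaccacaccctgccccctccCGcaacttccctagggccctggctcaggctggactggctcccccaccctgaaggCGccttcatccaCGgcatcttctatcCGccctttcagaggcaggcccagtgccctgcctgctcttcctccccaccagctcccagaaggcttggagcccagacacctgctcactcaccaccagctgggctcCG
UGCG, chr9:111896564-111896863, plus strand: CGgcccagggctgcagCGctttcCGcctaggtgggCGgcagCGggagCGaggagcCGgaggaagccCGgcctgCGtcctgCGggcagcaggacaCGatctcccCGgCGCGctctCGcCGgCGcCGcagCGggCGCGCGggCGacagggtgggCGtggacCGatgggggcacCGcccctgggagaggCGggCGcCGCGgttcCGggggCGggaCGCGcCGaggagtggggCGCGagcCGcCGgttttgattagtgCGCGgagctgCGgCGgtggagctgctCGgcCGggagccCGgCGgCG

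Motifs were searched on both strands of the same windows, and none of those named lies within another, though their ends can overlap. The Grainyhead motif AACCGGTT matched 0 of the 13 member windows and 0.134% of all. The AP-1 motif TGANTCA matched 2 of the 13, both of ALOXE3 and themselves overlapping in position, against 7.71% of all windows. The motif CACCTG, bound by ZEB and SNAI factors, stood in 7 of the 13, among them the upstream window of ABCA12 and that of ALOX12B, and in 20.6% of all windows. Overlapping windows of ALOXE3 share a match, as do overlapping windows of CERS3, so these 7 are not separate stretches. TATAAA stood in 1 of the 13, the downstream window of ABCA12, and in 11.5% of all, and the GC box GGGCGG in 7 of the 13, neither of them of ABCA12, and in 45.0% of all. These matches describe the letters of the reference only.

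The wider pathway held a few further decreases. A further 4 lists of barrier lipid genes named 53 genes, of which 46 were measured, each by its brightest probe set. These lists, too, were chosen with earlier results of these data known. In limma 4 of the 46 passed as lower and 0 as higher, leaving 42 uncalled, against 1.28% of all genes lower and 1.04% higher, and at an unadjusted p under 0.05 limma gave 10 lower and 2 higher (9.79% and 8.83% of all genes). Groups were separate on the lower side for 11 (14.6% of all genes) and on the higher side for 3 (10.4%). By the fold rule of the methods 7 passed (1.81% of all genes). The median log2 fold change was -0.24, and -0.02 over all genes.

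Among 12 measured genes of sphingoid base and ceramide synthesis, 0 were lower and 0 higher in limma, with 1 lower and 0 higher at an unadjusted p under 0.05. That gene was CERS6, a ceramide synthase of shorter chains, with a log2 fold change of -0.88 (unadjusted p = 0.0251, adjusted p = 0.226). CERS2, which makes ceramides of very long chains in most tissues, had -0.29. SPTSSB, a small subunit that sets the substrate of serine palmitoyltransferase, read 6.88, 7.13 and 10.76 on control arrays 1, 2 and 3 and 6.02, 5.82 and 5.89 on the MBD2 arrays. Its difference of -2.35 did not pass (limma adjusted p = 0.33). Control array 3 was again the reading that stood apart, and without it the difference was -1.10 and passed (limma adjusted p = 0.0357).

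Of 15 genes of fatty acid elongation and acylceramide assembly, 1 was lower, TECR, the reductase of the last step of each elongation cycle. It read 11.28, 11.07 and 11.29 on the control arrays and 9.63, 9.69 and 9.42 on the MBD2 arrays. The arrays of each group lay close together, and the log2 fold change was -1.63 (standard error 0.12, limma adjusted p = 0.0105). ELOVL3, an elongase of skin and its glands, read 6.18, 5.40 and 6.31 and then 4.65, 4.35 and 4.28, a log2 fold change of -1.54 just short of the threshold (limma adjusted p = 0.0561). FA2H, which hydroxylates the fatty acids of ceramides, read 5.46, 5.66 and 9.78 on control arrays 1, 2 and 3 and 4.75, 4.93 and 4.78 on the MBD2 arrays (log2 fold change -2.15, limma adjusted p = 0.422). Without control array 3 the difference was -0.74 (limma adjusted p = 0.0633), and a dimmer FA2H probe set had 0.04 and no high reading on that array (5.16). CYP4F22 and PNPLA1, which make the hydroxylated acyl chain and the acylceramide, were dim. CYP4F22 had means of 4.63 and 4.24, and PNPLA1, at 3.69 and 3.55, lay near the absent control.

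Of 12 genes of lamellar body lipid processing and ceramide turnover, 2 were lower. NIPAL4, a membrane protein whose loss causes ichthyosis, read 8.30, 8.40 and 8.82 on the control arrays and 6.11, 5.88 and 5.72 on the MBD2 arrays, with a log2 fold change of -2.60 (standard error 0.18, limma adjusted p = 0.00751). SULT2B1, which makes cholesterol sulfate, read 6.72, 6.58 and 7.16 and then 5.69, 5.52 and 5.52, a log2 fold change of -1.24 (limma adjusted p = 0.0352). By their brightest probe sets STS, the sulfatase that acts on cholesterol sulfate, had 0.84 (limma adjusted p = 0.155) and ACER3, a ceramidase, 0.64 (limma adjusted p = 0.504). The dimmer STS probe sets had 0.36, 0.27 and -0.41, and none passed. Groups were separate on the higher side for the second of these and on the lower side for the last.

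Of 7 genes of linoleate oxidation and the lipid envelope, 1 was lower. TGM1, the transglutaminase that crosslinks the cornified envelope, read 10.84, 10.58 and 9.38 on control arrays 1, 2 and 3 and 6.67, 7.58 and 6.64 on MBD2 arrays 1, 2 and 3. Its log2 fold change of -3.30 (standard error 0.45, limma adjusted p = 0.0351) was of the size of that of ABCA12, and control array 3 was the lowest control for both genes. ALOX5AP, a partner of 5-lipoxygenase, had 0.73 (limma adjusted p = 0.0602), and SDR9C7, which acts after ALOXE3, had -0.37 with readings near the absent control. The calls of TECR, NIPAL4, SULT2B1 and TGM1 were all lost when either of the control arrays 1 and 2 was dropped, or MBD2 array 3, those of SULT2B1 and TGM1 also without MBD2 array 2 or with the hybridization level as a block, and all 4 with the near-identical arrays merged.

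**Figure D3:**
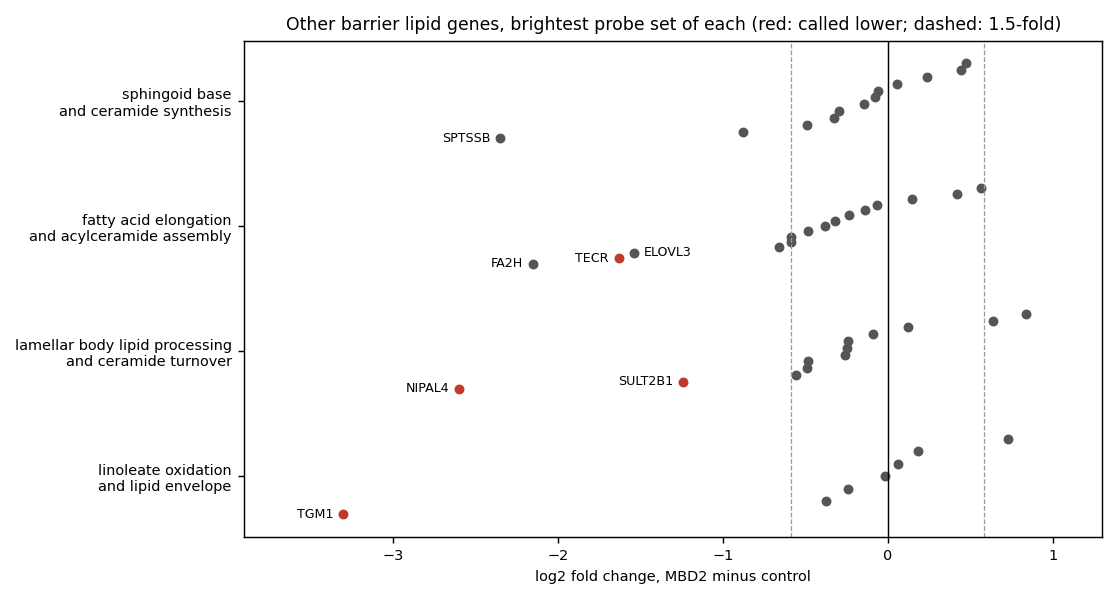
Log2 fold change, MBD2 minus control (horizontal axis), of the 46 measured genes of 4 barrier lipid lists, 1 point per gene, with red for genes called lower and dashed lines at 1.5-fold. TGM1, NIPAL4, TECR and SULT2B1 are red between -3.30 and -1.24; SPTSSB, FA2H and ELOVL3 lie as low without passing.

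Some genes of keratinocyte differentiation were lower on the same arrays as ABCA12 and ALOX12B. Of 22 measured genes of terminal differentiation, 11 were lower and 0 higher in limma (1.28% and 1.04% of all genes), with a median log2 fold change of -1.45 and with DSC1, FLG and FLG2 near the absent control on every array. This list was also chosen with earlier results of these data known, so its count beside the share of all genes is descriptive only. Within it KRT1 had a log2 fold change of -5.75 (limma adjusted p = 0.00148), further below 0 than ABCA12. KRT10 and IVL had -1.87 and -1.62 (limma adjusted p = 0.00459 and 0.0434). FLG and LORICRIN had -0.43 and -0.45 and did not pass (limma adjusted p = 0.272 and 0.0979). The median of the list lay between -0.12 and 0.15 from the control mean on the control arrays and between -1.66 and -1.26 on the MBD2 arrays. That of the 9 member genes lay between 0.06 and 0.15 and between -1.0 and -0.37. Their part in the result was not tested. The basal keratins KRT5 and KRT14 had log2 fold changes of -1.26 and -0.56, with groups separate on the lower side. Neither passed (unadjusted p = 0.0126 and 0.0275, adjusted p = 0.167 and 0.234 in limma). Of 9 measured epithelial and basal markers 1 was lower and 1 higher, with a median log2 fold change of 0.61. KRT5 and KRT14 are in this list and thus lay on the other side of 0 from its median. Unlike the members, the differentiation list was lowest on MBD2 array 1. Markers of cells foreign to the culture did not pass, with 0 of 8 fibroblast, 7 endothelial, 6 leukocyte and 6 HEK293 genes higher or lower in limma and PTPRC, CDH5, KDR, LIN28B, NEFL and NEFM near the absent control on every array. The mean level of the fibroblast list ranged from 6.64 to 7.39 on the control arrays and from 6.66 to 8.75 on the MBD2 arrays, and its member COL1A1, a collagen gene, had separate groups at a log2 fold change of 1.28 (unadjusted p = 0.00489, adjusted p = 0.108 in limma). What this contributes was not tested.

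By the distance between patterns, taken as the root mean square difference of log2 values over the 6 arrays after subtracting each gene's control mean, the genes nearest to ABCA12 were THBD (0.248), which encodes thrombomodulin, GPM6B (0.35) and ENTPD3 (0.356). Their log2 fold changes were -3.11, -3.04 and -3.63. Nearest to ALOX12B were MANSC1 (0.085), PDIK1L (0.109) and HMGCS1 (0.114), the last of which encodes an enzyme of cholesterol synthesis. Over 6 arrays in 2 groups such distances are small for any gene that changed by a like amount.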

How the data were processed

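Total RNA of MCF-10A cells was hybridized to Affymetrix Human Genome U133 Plus 2.0 arrays, 3 per group. The authors deposited log2 RMA values, 1 per probe set and array. RMA and affy, without versions, are credited to the submitters' processing notes. Values run from 2.57 to 14.74. Background correction and normalization across arrays compress low values and remove any change shared by most transcripts.

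Of 54675 probe sets, 62 controls, 11721 with no symbol and 1801 with several were left out. Symbols were updated through the RefSeq gene table, where 41037 of the 41091 probe sets kept were found. Groups were compared with lmFit and eBayes of limma 3.58.1 under R 4.3.3, with no covariate and 1.95 prior degrees of freedom, and with Benjamini-Hochberg adjustment over all 41091 probe sets and no filter on dim ones. Calls needed a fold of 1.5 or more besides an adjusted p under 0.05. Pathway lists were read through the brightest probe set of each gene. The fit was tested on simulated data. The number of arrays limits the precision.

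All members were named with every probe set. Of the pathway lists, called genes, the 2 largest uncalled changes of each list and TGM1, CYP4F22, PNPLA1, CERS2 and CERS6 were named, and 1 further gene of the rule is not reported here. The members and lists were chosen with earlier results of these data known. The alternatives were 1 probe set per gene, probe sets with no ending for shared sequence, a mean of at least 5, housekeeping centring, a further quantile normalization, trend and robust eBayes, a replicate block, averaging of near-identical arrays, the hybridization level as a block, arrays left out, and the fold rule of the methods.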

Additional observations from a re-analysis of the deposited data

How the results depend on the processing

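ABCA12 and ALOX12B kept their sign under every alternative run. Of their 31 values under alternatives, 17 passed the threshold and 14 did not, and of 236 values of the other members 7 passed. The number of member probe sets called lower was 2, and it lay between 0 and 2 with 1 array left out. It was 1 with a mean of at least 5, since ALOX12B lies under that level, 1 (ABCA12) with the hybridization level as a block, 0 with the near-identical arrays averaged and 7 without control array 3 and MBD2 array 1 together. The number called higher was 0, lay between 0 and 1 with 1 array left out and was 1 with those 2 arrays left out. For the pathway genes, 4 were lower and 0 higher, with ranges of 0 to 6 and 0 to 2 with 1 array left out. The lower count was 2 with only probe sets without an ending for shared sequence, 0 with averaged arrays, 2 with the hybridization level as a block and 7 by the fold rule of the methods (a ratio under 0.5 on every MBD2 array, with no p). With both arrays left out, 18 pathway genes were lower and 2 higher. Over all probe sets, 402 were lower and 369 higher, with ranges of 18 to 1924 and 2 to 3616 with 1 array left out. These counts were 246 and 245 without probe sets of shared sequence, 0 and 0 with averaged arrays, 248 and 222 with the hybridization level as a block and 4094 and 6380 with both arrays left out. By the fold rule 1230 were higher. The cause of these shifts was not tested, except that fewer probe sets were tested under the filters. Housekeeping centring moved the median log2 fold change of all probe sets to -0.13 from -0.00, and 16 instead of 14 member probe sets lay below 0. Of the probe sets that were not called, 5 had the other sign under at least 1 alternative, by at most 0.25 log2 units.

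Same-numbered arrays did not deviate together in every pair (correlations of 0.208, -0.329 and 0.285 for numbers 1, 2 and 3, across probe sets), so the numbers were not taken to pair the arrays. With the replicate block, 0 member probe sets were lower and 0 higher, 0 pathway genes were lower and 0 higher, and 23 and 1 of all probe sets were. The adjusted p under the block was 0.0639 for ABCA12 and 0.13 for ALOX12B.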

Other observations

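A group of 3 genes of ceramide and fatty acid chemistry was high on control array 3 alone. The brighter FA2H probe set lay 4.22 log2 units above the mean of control arrays 1 and 2 there, SPTSSB 3.75 and ALOX15B 2.31, and 0.0681%, 0.129% and 0.696% of all probe sets lay as far from that mean in either direction. A second FA2H probe set read 5.27, 5.12 and 5.16 on control arrays 1, 2 and 3, with no such rise. On the same array SPTLC2 (225095_at) stood at -1.27 log2 units from that mean, ELOVL4 at -1.43 and ABCA12 at -0.67. The array thus differed in both directions within the pathway, and the median of the mitosis list was also lowest there (-1.16 from the control mean). FA2H, SPTSSB and ALOX15B were picked here for these readings, which rest on 1 array, so no test was made.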
